A study of Homo sapiens with 8 samples.

Results

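PVT1, CASC19, CCDC26 and PCAT1 are long noncoding RNA genes of human chromosome 8q24 that lie on both sides of the oncogene MYC. They were followed in total RNA depleted of ribosomal RNA from LM3 and HepG2 cells, which the labels give as hepatocellular carcinoma cell lines. The 4 groups were LM3 treated with JQ1, LM3 given vehicle (DMSO), HepG2 treated with JQ1 and HepG2 given vehicle, with 2 libraries each, 8 in all. JQ1 is a small-molecule inhibitor of chromatin reader proteins. The labels state neither its dose nor its duration, and each line is a single established line. The genes were chosen as the loci whose Ensembl ID maps to 1 of these 4 symbols. This gave 4 of the 15469 loci with values in each line's lncRNA expression table. Ranks, shares and percentages of loci are among the loci of these tables, not among all RNAs of the cells. MYC itself was not analysed here.

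The region around MYC holds few protein-coding genes and a long stretch of noncoding DNA with enhancers that are active in different tumour types. PVT1 begins downstream of MYC on the same strand, hosts several microRNAs, is often gained together with MYC in cancer, and its promoter is known to compete with that of MYC for enhancers. CASC19 lies upstream of MYC in the stretch that also holds CCAT1, a transcript from a super-enhancer that is known from colorectal cancer. PCAT1 was described as a prostate cancer transcript and CCDC26 lies in a downstream region known from myeloid leukaemia. JQ1 is known to lower transcription from many super-enhancers and to lower MYC in many, though not all, cancer lines.

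Values are FPKM, fragments scaled by transcript length and library size, as deposited. Their sums over all loci were 34148 and 34771 in LM3 with JQ1, 34066 and 35742 in LM3 with vehicle, 31309 and 32765 in HepG2 with JQ1, and 30699 and 29369 in HepG2 with vehicle. Total read counts are unknown, so counting error cannot be stated, and the spread between the 2 libraries of a group is the only error. Loci of ribosomal RNA and mitochondrial DNA took up 19.8% and 21.5% of that total in LM3 with JQ1, 17.9% and 18.7% with vehicle, 17.1% and 18.0% in HepG2 with JQ1, and 15.3% and 15.8% with vehicle. The part of this shift in the results was not tested, but each result was recomputed without those loci in the scale. In LM3, 998 loci were called lower with JQ1 and 513 higher, of 6474 tested. With each library centred on its median the LM3 split was 770 lower and 700 higher, and with quantile normalization 732 lower and 715 higher. In HepG2, 840 loci were called lower and 640 higher, of 5906 tested, and with centring 786 lower and 809 higher. The median log2 fold change of all tested loci was -0.084 in LM3 and -0.0056 in HepG2. Hepatocyte lncRNAs were at low levels in both lines: summed over the 7 of 10 listed with values, they came to 1.29 and 1.15 FPKM in LM3 with JQ1 and 2.18 and 2.42 FPKM with vehicle. The same sum was 2.65 and 2.74 FPKM in HepG2 with JQ1 and 8.95 and 8.97 FPKM with vehicle. FAM99A, FAM99B and LINC02499 had no value. Marker lncRNAs of other cell types, 7 of 8 with values, summed to 2.69 and 2.74 FPKM in LM3 with JQ1 and 4.89 and 5.44 FPKM with vehicle. They summed to 3.99 and 4.15 FPKM in HepG2 with JQ1 and 9.69 and 10.7 FPKM with vehicle. Of that list, FENDRR and LINC00926 were high enough to be tested in both lines. Their vehicle means were 3.395 and 0.94 FPKM in LM3 and 8.715 and 0.875 FPKM in HepG2. The others with values were too low to be tested, and the lymphoid PCED1B-AS1 and the neural MIR124-1HG were at or near 0. Each sum was lower with JQ1, and in LM3 that rested on 1 lncRNA of each list. Without CPS1-IT1 the hepatocyte sum was 0.88 and 0.89 FPKM in LM3 with JQ1, against 0.84 and 1.01 FPKM with vehicle, and 1.32 and 1.52 FPKM in HepG2 with JQ1, against 2.11 and 2.18 FPKM with vehicle. Without FENDRR the other sum was 1.67 and 1.69 FPKM in LM3 with JQ1, against 1.54 and 2.0 FPKM with vehicle, and 1.28 and 1.27 FPKM in HepG2 with JQ1, against 1.4 and 1.51 FPKM with vehicle. The part of these markers in the results below was not tested.

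All positions are on GRCh38 as in the tables, on chromosome 8, and distances run from the start of MYC at 127735434 (GENCODE release 29). PVT1 (ENSG00000249859) occupies 127794526 to 128187101 on the plus strand, and its start lies 59.1 kb downstream of that of MYC. GENCODE release 29 gives it 25 transcripts with 5493 exonic bases and ends it at 128101253, so the locus here runs further at its 3′ end. The 5 microRNA genes MIR1204 to MIR1208 lie within the longer span. CASC19 (ENSG00000254166) occupies 127072694 to 127227541 on the minus strand, with its start 508 kb upstream of MYC. Its 84 annotated transcripts cover 22208 exonic bases, and the RefSeq spans of PCAT2, PRNCR1 and CCAT1 fall inside that interval, so a value given for CASC19 is a value for this whole interval. PCAT1 (ENSG00000253438) occupies 126556323 to 127419050 on the plus strand and encloses CASC19 on the opposite strand. RefSeq gives PCAT1 only 127013154 to 127021014, so a value given for PCAT1 is likewise one for the longer locus. CCDC26 (ENSG00000229140) is the most distant, at 128634199 to 129683770 on the minus strand, and its start lies 1948 kb downstream of MYC. RefSeq gives CCDC26 only 129351694 to 129680239, and the RefSeq spans of LINC00976 and LINC00977 also overlap the locus. A value given for CCDC26 is therefore also one for the longer locus. The strand setting of the authors' counting is not given in the sources used here, so reads of PCAT1 and of the minus-strand loci inside it may not have been told apart.

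The 4 genes were at very different levels. On the FPKM scale and in cells given vehicle, CASC19 was the highest in LM3, ahead of PVT1, CCDC26 and PCAT1, while in HepG2 PVT1 was the highest, ahead of CASC19, CCDC26 and PCAT1. The replicate ranges of neighbours in these orders did not overlap in either line. PVT1 ranked 76 and 81 among the 15469 loci in LM3 with JQ1 and 47 and 47 with vehicle. It ranked 58 and 58 in HepG2 with JQ1 and 30 and 27 with vehicle. CASC19 ranked 18 and 20 in LM3 with JQ1 and 12 and 14 with vehicle, against 233 and 211 in HepG2 with JQ1 and 88 and 88 with vehicle. PVT1 and CASC19 were therefore abundant among the lncRNA loci of both lines, whereas PCAT1 was near the lower limit of the loci tested.

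**Figure D1:**
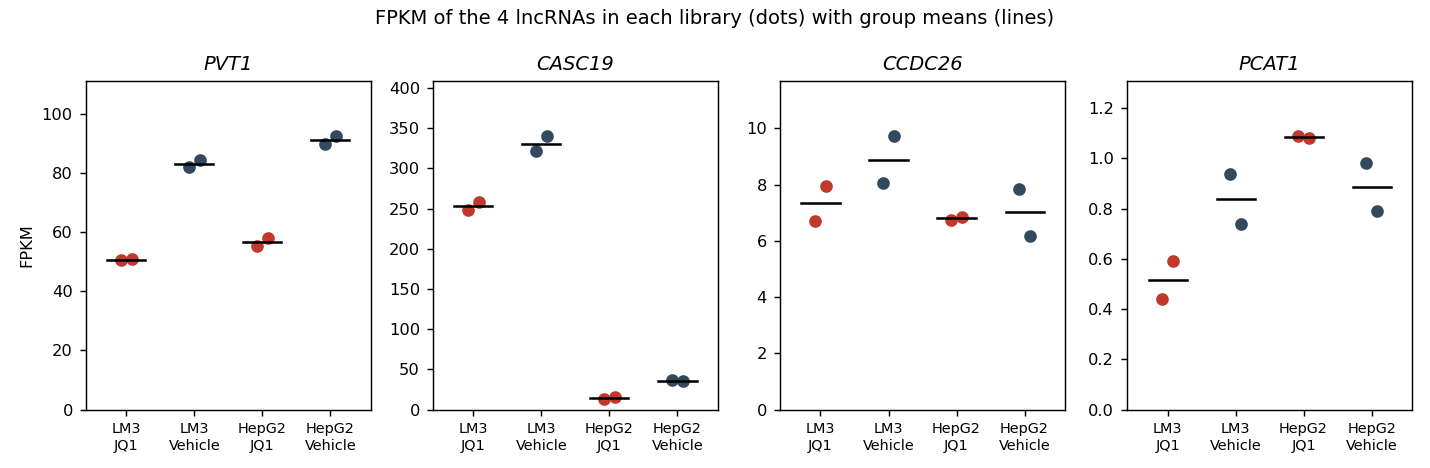
FPKM (linear axes from 0, 1 panel a gene) of PVT1, CASC19, CCDC26 and PCAT1 in each of the 8 libraries, with LM3 left of HepG2 and JQ1 left of vehicle; dots are libraries and horizontal lines are group means. PVT1 is lower with JQ1 in both lines, CASC19 is at 248 to 340 FPKM in LM3 and at 13.7 to 36.5 FPKM in HepG2, and the groups of CCDC26 in HepG2 overlap.

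PVT1, whose RNA is known to raise MYC protein stability, fell with JQ1 in both lines. All 4 genes passed the filter on low values in both lines, at a mean of 0.5 FPKM or more over the 4 libraries of a line. It had 50.5 and 50.8 FPKM in LM3 with JQ1, against 81.8 and 84.1 FPKM with vehicle. It had 55.1 and 58.0 FPKM in HepG2 with JQ1, against 89.7 and 92.5 FPKM with vehicle. All 4 JQ1 libraries lay below all 4 vehicle libraries, so the groups did not overlap within a line. With 2 libraries a group, such separation has an exact permutation p of 0.33 at best, so here and below it is a description. Its share over all tested loci was not computed. PVT1 averaged 50.6 ± 0.205 FPKM with JQ1 and 82.97 ± 1.65 FPKM with vehicle in LM3 (SD, n = 2 each), which left 61.0% of the vehicle level. On the log2 scale this was a fold change of -0.71 (SE 0.0771, 95% interval -0.91 to -0.50, limma, adjusted p = 0.011). In HepG2 it averaged 56.5 ± 2.03 FPKM with JQ1 and 91.1 ± 1.97 FPKM with vehicle (SD, n = 2 each), or 62.1% of the vehicle level. Its log2 fold change there was -0.68 (SE 0.0704, 95% interval -0.87 to -0.50, limma, adjusted p = 0.00873). Fewer cells with the RNA and less RNA per cell cannot be told apart in bulk samples.

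PVT1 and CASC19 were the 2 of the 4 genes called lower in each line, and none of the 4 was called higher. With the same limma test, 15.4% of the tested loci were called lower with JQ1 in LM3, 7.92% higher and 23.3% in either direction. In HepG2, 14.2% were called lower, 10.8% higher and 25.1% in either direction. A lower fold change than that of PVT1 was seen at 10.5% of the tested loci in LM3 and 8.04% in HepG2. The labels do not say that replicates came from separate cultures, so these p-values measure only the spread between libraries. With 1 library of LM3 left out, PVT1 kept a log2 fold change between -0.73 and -0.69, but no locus of the table was called and its adjusted p was 0.0605 to 0.123. Without either JQ1 library of HepG2 its adjusted p was 0.0884 and 0.0836.

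Unannotated loci that overlap PVT1 were lower with JQ1 as well. LXLOC_053351, an unannotated locus at 127766082 to 128101256 on the plus strand, begins 28.4 kb before PVT1. Its span holds all 5493 annotated exonic bases of PVT1, so it cannot be taken as an independent measurement. It had 93.1 and 89.0 FPKM in LM3 with JQ1, against 142 and 146 FPKM with vehicle. In HepG2 it had 58.4 and 61.0 FPKM with JQ1, against 95.1 and 92.6 FPKM with vehicle. Its log2 fold change was -0.66 in LM3 (SE 0.0786, limma, adjusted p = 0.0121) and -0.65 in HepG2 (SE 0.0689, adjusted p = 0.0091). LXLOC_053352, a short plus-strand locus at 127943878 to 127946607, overlaps the RefSeq span of LINC02912. It lies in PVT1 introns and shares no annotated exonic base of PVT1. It averaged 6.66 ± 0.198 FPKM with JQ1 and 10.3 ± 0.255 FPKM with vehicle in LM3 (SD, n = 2 each), a log2 fold change of -0.60 (limma, adjusted p = 0.0154). It averaged 6.58 ± 0.0849 FPKM with JQ1 and 10.04 ± 0.311 FPKM with vehicle in HepG2 (SD, n = 2 each), a log2 fold change of -0.57 (limma, adjusted p = 0.0124). Signal of PVT1 and of this locus between its exons was thus lower with JQ1 in both lines and by a similar amount. Whether LXLOC_053352 holds RNA of PVT1 or of LINC02912 cannot be told apart here.

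CASC19 fell with JQ1 in both lines, from levels that differed by nearly an order of magnitude. It had 248 and 258 FPKM in LM3 with JQ1, against 321 and 340 FPKM with vehicle. It had 13.7 and 16.1 FPKM in HepG2 with JQ1, against 36.5 and 35.1 FPKM with vehicle. The groups did not overlap in either line, and even the treated LM3 libraries stood far above the vehicle libraries of HepG2. The vehicle level in LM3 was 9.24 times that in HepG2, and CASC19 alone made up 0.942% and 0.952% of the FPKM sum of the LM3 vehicle libraries. The tables of the lines may have been normalized separately, so that ratio is a description, while the order of CASC19 and PVT1 within a library is free of that doubt.

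In LM3, CASC19 averaged 253 ± 6.95 FPKM with JQ1 and 331 ± 13.7 FPKM with vehicle (SD, n = 2 each), so 76.5% of the vehicle level remained. The log2 fold change was -0.39 (SE 0.0796, 95% interval -0.60 to -0.17, limma, adjusted p = 0.0355). The call did not survive centring of each library (-0.30, adjusted p = 0.0523), limma without trend and robust fitting (adjusted p = 0.055), a fit with no filter on low values (adjusted p = 0.0696) or the loss of any 1 library (adjusted p = 0.0837 to 0.240). In HepG2, CASC19 averaged 14.9 ± 1.74 FPKM with JQ1 and 35.8 ± 0.948 FPKM with vehicle (SD, n = 2 each), so 41.6% of the vehicle level remained. The log2 fold change was -1.24 (SE 0.101, 95% interval -1.51 to -0.97, limma, adjusted p = 0.00705), and it was -1.36 to -1.13 with 1 library left out, where the call was lost without either JQ1 library (adjusted p = 0.0884 and 0.0836). A lower fold change was seen at 1.07% of the tested loci in HepG2 and at 24.9% in LM3.

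The largest signal of the region came from a locus whose span holds most annotated exonic bases of CASC19. LXLOC_054641, at 127140169 to 127229306 on the minus strand, has within its span 20735 of the 22208 annotated exonic bases of CASC19. The RefSeq spans of CASC19 and CCAT1 also lie within LXLOC_054641. It had 1235 and 1127 FPKM in LM3 with JQ1, against 1610 and 1683 FPKM with vehicle. With vehicle it ranked 1 in both LM3 libraries, above every other locus with a value, and with JQ1 it ranked 2 and 4. In HepG2 it had 79.4 and 85.1 FPKM with JQ1, against 195 and 196 FPKM with vehicle, and ranked 33 and 34 against 15 and 14. Its log2 fold change was -0.48 in LM3 (SE 0.0836, limma, adjusted p = 0.0252), a call lost with quantile normalization and with no filter on low values. In HepG2 it was -1.24 (SE 0.0734, limma, adjusted p = 0.00487), as for CASC19.

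LXLOC_054647, at 127211963 to 127212684 on the minus strand, lies within the RefSeq span of CCAT1 and shares no annotated exonic base with CASC19. It averaged 47.9 ± 2.56 FPKM with JQ1 and 64.7 ± 0.290 FPKM with vehicle in LM3 (SD, n = 2 each), and 2.65 ± 0.163 FPKM with JQ1 and 6.41 ± 0.198 FPKM with vehicle in HepG2 (SD, n = 2 each). Log2 fold changes were -0.43 in LM3 (limma, adjusted p = 0.0319, lost with the same settings as that of LXLOC_054641) and -1.13 in HepG2 (limma, adjusted p = 0.00615). Levels and responses at this short locus therefore followed those of the long loci around it. Not every other minus-strand locus within CASC19 without shared exonic bases did so in LM3. There LXLOC_054645 had a log2 fold change of 0.040 (limma, adjusted p = 0.824) and LXLOC_054643 had 0.52 (limma, adjusted p = 0.0465). LXLOC_054646 had -0.36 (limma, adjusted p = 0.163). LXLOC_054641 stood at 4.37 to 5.02 times CASC19 in the 4 LM3 libraries and at 5.28 to 5.81 times in the 4 HepG2 libraries. LXLOC_054647 stood at 0.179 to 0.201 times CASC19 in LM3 and 0.172 to 0.186 times in HepG2. These ratios of FPKM levels were close across lines and treatments, although the levels themselves spanned more than an order of magnitude. The loci overlap and may share reads, which was not tested, so close ratios are not separate evidence of a parallel response.

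**Figure D2:**
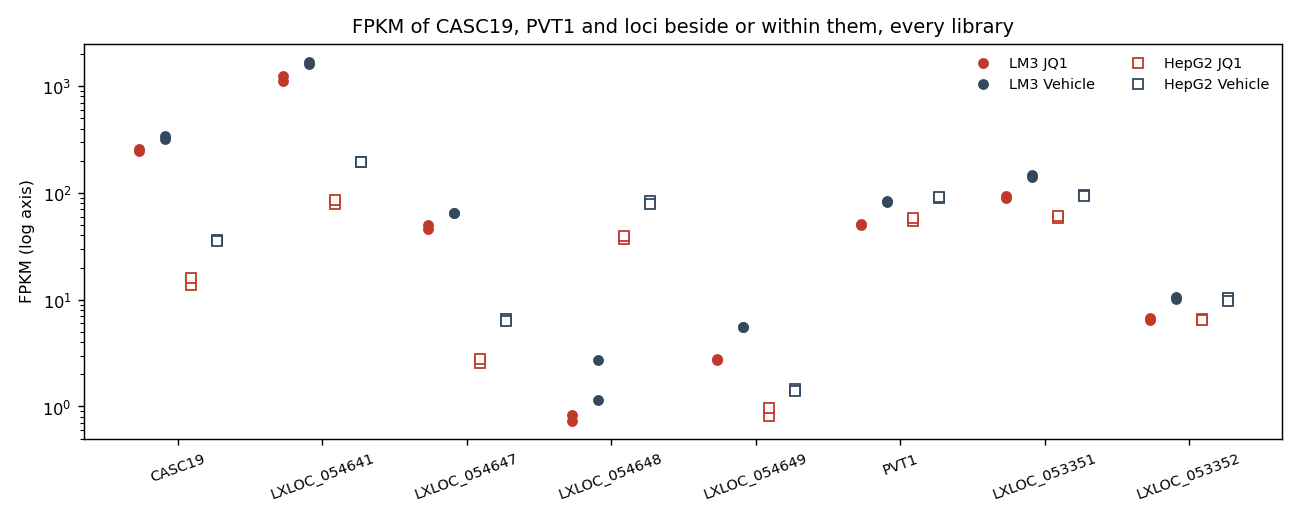
FPKM (log axis) of CASC19, PVT1 and the unannotated loci that overlap or neighbour them in each of the 8 libraries, with LM3 left of HepG2 and JQ1 left of vehicle; points are libraries. LXLOC_054641 reaches 1610 and 1683 FPKM in LM3 with vehicle, and LXLOC_054648 is at 0.73 to 2.75 FPKM in LM3 but 36.8 to 83.7 FPKM in HepG2.

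One neighbour of CASC19 had the opposite line pattern. LXLOC_054648, at 127253043 to 127263399 on the minus strand, lies 23.7 kb beyond the end of LXLOC_054641, in the RefSeq span of CASC21. It had 0.83 and 0.73 FPKM in LM3 with JQ1, against 1.15 and 2.75 FPKM with vehicle, and 36.8 and 39.5 FPKM in HepG2 with JQ1, against 83.7 and 78.8 FPKM with vehicle. Its vehicle level in HepG2 was 41.7 times that in LM3, whereas that of CASC19 was 9.24 times higher in LM3 than in HepG2. Within a library, LXLOC_054648 stood at 0.00283 to 0.00808 times CASC19 in LM3 and at 2.24 to 2.69 times CASC19 in HepG2. Its log2 fold change was -1.08 in HepG2 (SE 0.0779, limma, adjusted p = 0.00615) and -0.86 in LM3, where the vehicle libraries lay far apart and the test did not pass (SE 0.345, limma, adjusted p = 0.146). LXLOC_054649, further along at 127289725 to 127294779 on the minus strand, averaged 2.75 ± 0.0566 FPKM with JQ1 and 5.58 ± 0.0354 FPKM with vehicle in LM3 (SD, n = 2 each), a log2 fold change of -0.90 (SE 0.0824, limma, adjusted p = 0.00908). In HepG2 it averaged 0.895 ± 0.106 FPKM with JQ1 and 1.44 ± 0.0354 FPKM with vehicle (SD, n = 2 each), a log2 fold change of -0.47 (limma, adjusted p = 0.0354).

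Ratios of FPKM levels within a library do not depend on how the tables were scaled. The ratio of CASC19 to PVT1 was 4.91 and 5.08 in LM3 with JQ1, against 3.92 and 4.05 with vehicle. In HepG2 it was 0.248 and 0.278 with JQ1, against 0.407 and 0.380 with vehicle. CASC19 thus stood above PVT1 in every LM3 library and below it in every HepG2 library, and JQ1 libraries had the higher ratio in LM3 and the lower ratio in HepG2. With 2 libraries a group, an exact permutation test cannot give a p under 0.33, so these ratios were not tested. The ratio of LXLOC_053351 to PVT1 was 1.84 and 1.75 in LM3 with JQ1, against 1.74 and 1.74 with vehicle, and 1.06 and 1.05 in HepG2 with JQ1, against 1.06 and 1.00 with vehicle. LXLOC_053351, with the longer 5′ part and the earlier 3′ end, thus stood higher relative to PVT1 in LM3 than in HepG2. Its ratio differed little between JQ1 and vehicle, but the loci overlap and may share reads, which was not tested. The level of PVT1 was 42.4 and 43.4 times that of the median tested locus in LM3 with JQ1, against 64.9 and 64.7 times with vehicle. In HepG2 it was 49.2 and 49.6 times with JQ1, against 73.5 and 79.7 times with vehicle.

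**Figure D3:**
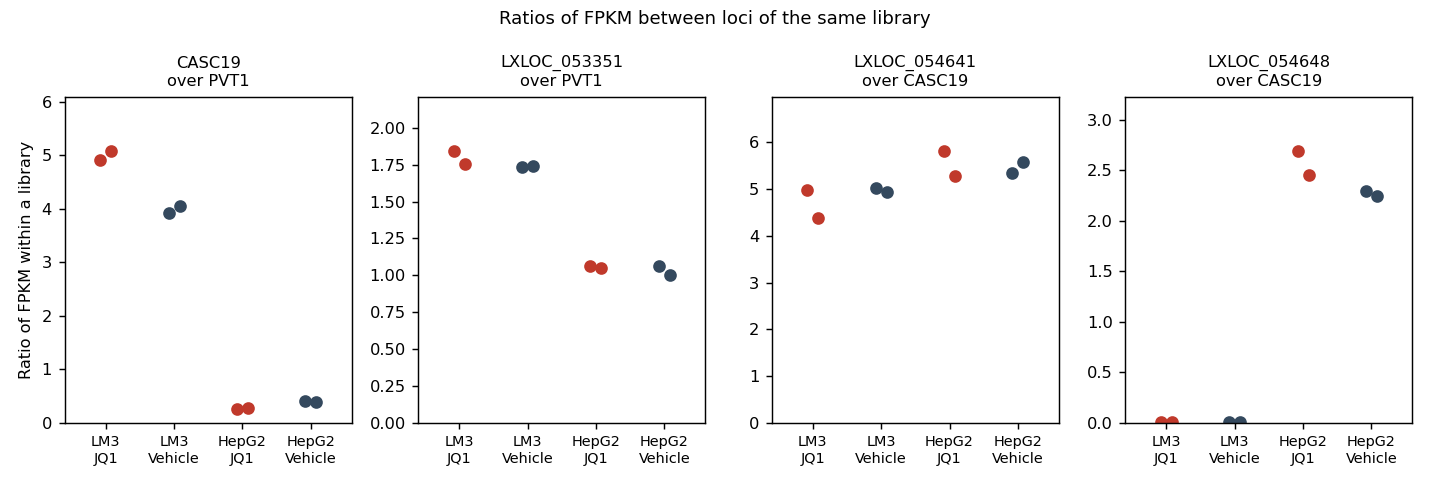
Ratios of FPKM levels of CASC19 and LXLOC_053351 to PVT1, and of LXLOC_054641 and LXLOC_054648 to CASC19, within each of the 8 libraries (linear axes from 0), with LM3 left of HepG2 and JQ1 left of vehicle; points are libraries. The ratio of CASC19 to PVT1 is 3.92 to 5.08 in LM3 and 0.248 to 0.407 in HepG2.

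CCDC26 did not pass the test in either line. It had 6.70 and 7.96 FPKM in LM3 with JQ1, against 8.04 and 9.73 FPKM with vehicle, and the groups did not overlap but were separated by less than their own spread. It had 6.75 and 6.84 FPKM in HepG2 with JQ1, against 7.85 and 6.18 FPKM with vehicle, and the groups overlapped. The log2 fold change was -0.26 in LM3 (95% interval -0.64 to 0.12, limma, adjusted p = 0.241) and -0.034 in HepG2 (95% interval -0.38 to 0.31, limma, adjusted p = 0.866). With each HepG2 library centred on its median the HepG2 value was 0.0049, so its direction depends on the scaling. With 1 library left out, the LM3 value was -0.39 to -0.13. Its vehicle level in LM3 was 1.27 times that in HepG2, where this ratio was 0.911 for PVT1 and 0.949 for PCAT1, so CASC19 was the 1 gene of the 4 whose levels in the lines were far apart. Its ratio to PVT1 was 0.133 and 0.157 in LM3 with JQ1, against 0.0983 and 0.116 with vehicle, and 0.122 and 0.118 in HepG2 with JQ1, against 0.0875 and 0.0668 with vehicle.

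PCAT1, the least abundant of the 4, did not pass the test either. It had 0.44 and 0.59 FPKM in LM3 with JQ1, against 0.94 and 0.74 FPKM with vehicle. It had 1.09 and 1.08 FPKM in HepG2 with JQ1, against 0.98 and 0.79 FPKM with vehicle. The JQ1 libraries were the lower in LM3 and the higher in HepG2, and the groups overlapped in neither line. With 2 libraries a group, that separation does not show a change. The log2 fold change was -0.40 in LM3 (SE 0.151, 95% interval -0.80 to 0.00089, limma, adjusted p = 0.125) and 0.20 in HepG2 (SE 0.109, 95% interval -0.089 to 0.49, limma, adjusted p = 0.248). At such low levels the pseudocount of 0.5 pulls a log2 fold change towards 0. With 1 library left out, the HepG2 value was 0.099 to 0.30. JQ1 groups stood at 61.3% of the mean vehicle FPKM in LM3 and 123% in HepG2.

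**Figure D4:**
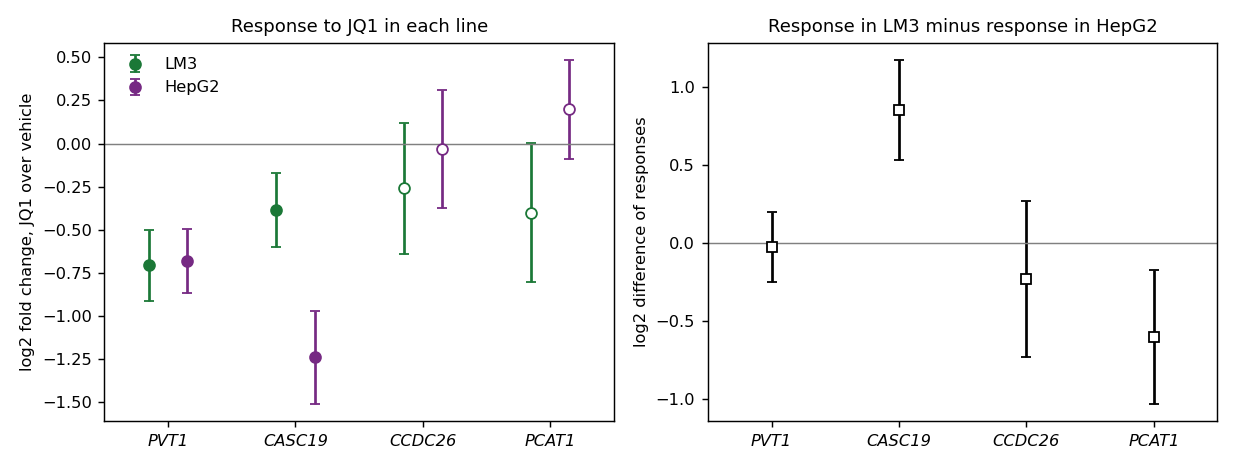
Log2 fold changes (JQ1 over vehicle, on the log2(FPKM + 0.5) scale) of PVT1, CASC19, CCDC26 and PCAT1 in LM3 and HepG2 and their difference (LM3 minus HepG2), with 95% intervals; filled points passed an adjusted p of 0.05 in limma. PVT1 lies at -0.71 in LM3 and -0.68 in HepG2, and CASC19 at -0.39 in LM3 and -1.24 in HepG2.

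A limma fit of all 8 libraries compared the responses of the lines, and none of the 4 genes passed after adjustment. Of the 5035 loci tested, 0.218% passed, 0.0199% with a higher and 0.199% with a lower value in LM3 than in HepG2. The response of PVT1 differed by -0.024 between LM3 and HepG2 (95% interval -0.25 to 0.20, adjusted p = 0.931), a value whose sign changed with the scaling (0.047 with each library centred on its median, 0.15 with quantile normalization and 0.094 when rescaled without ribosomal RNA and mitochondrial loci). The response of CASC19 differed by 0.86 (SE 0.133, 95% interval 0.54 to 1.18, unadjusted p = 0.000483, adjusted p = 0.0973), a weaker decrease in LM3 than in HepG2. A lower value was seen at 99.3% of the tested loci, and the difference passed with each library centred (0.93, adjusted p = 0.0457), when rescaled without ribosomal RNA and mitochondrial loci (0.97, adjusted p = 0.0418) and among Ensembl loci alone (0.86, adjusted p = 0.0308). It did not pass under the other 7 alternatives that kept all libraries, among them quantile normalization (adjusted p = 0.108) and the replicate block (adjusted p = 0.354), nor with any 1 library left out (adjusted p = 0.167 to 0.339). LXLOC_054641, whose span holds most annotated exonic bases of CASC19, differed by 0.76 (95% interval 0.49 to 1.03, limma, adjusted p = 0.0853). LXLOC_054647 differed by 0.70 (95% interval 0.44 to 0.96, limma, adjusted p = 0.0923). The 3 values are of overlapping loci and are not independent of each other. CCDC26 differed by -0.23 (95% interval -0.73 to 0.27, limma, adjusted p = 0.711; -0.39 to -0.065 with 1 library left out) and PCAT1 by -0.60 (95% interval -1.03 to -0.17, limma, unadjusted p = 0.0138, adjusted p = 0.280). A difference in PCAT1 is therefore not shown, though its interval leaves out 0 before adjustment.

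The 4 genes were then set among their neighbours. On chromosome 8 from 125556323 to 130683770, which reaches 1 Mb beyond the genes on each side, 39 other loci had values. Of these, 21 were tested in LM3, with 12 called lower, 1 higher and a median of -0.48 on the log2 scale, where all tested loci had -0.084. In HepG2, 17 were tested, with 7 called lower and 1 higher and a median of -0.32, against -0.0056 for all. Several of these loci overlap each other or the 4 genes. In LM3 the count of lower calls was 9 with each library centred, 10 when rescaled and 5 with quantile normalization, against 12, and it was 0 with any 1 library left out. In HepG2 it was 7 to 8 under these scalings, 0 without either JQ1 library and 4 and 6 without vehicle libraries 1 and 2. On the rest of chromosome 8, 36 of 206 tested loci were called lower in LM3 (median -0.13) and 29 of 183 in HepG2 (median -0.0095). Of all 5035 loci tested in both lines, 8.7% were called lower in both. Of the 18 in the interval, 7 were, namely PVT1, CASC19 and the 5 overlapping or neighbouring loci LXLOC_053351, LXLOC_053352, LXLOC_054641, LXLOC_054647 and LXLOC_054649. That count was 6 with centring, 5 with quantile normalization, 8 when rescaled, 3 of 38 with no filter on low values and 0 with any 1 LM3 library left out.

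Upstream of MYC, between the start of CASC19 and the end of PCAT1, loci of both strands were tested in HepG2, and the difference between strands was not tested. Of all loci tested in HepG2, 14.2% were called lower. In this stretch LXLOC_054641, LXLOC_054646 and LXLOC_054647 overlap CASC19 on the same strand. LXLOC_054646 and LXLOC_054647 also lie within LXLOC_054641, so the minus-strand loci are not independent of each other or of CASC19. All 5 minus-strand loci tested there besides CASC19 were called lower in HepG2, with a median log2 fold change of -1.08, and this count was 5 under every scaling tried, 0 without either JQ1 library and 3 and 4 without vehicle libraries 1 and 2. The 4 plus-strand loci that passed the filter, which lie in introns of PCAT1, had a median of 0.29 and positive values under all 4 scalings. LXLOC_053346 passed only through its JQ1 libraries (0.795 ± 0.106 FPKM with JQ1 and 0.465 ± 0.0778 FPKM with vehicle, SD, n = 2 each), which favours a positive value. With no filter there were 6 such loci, 1 of them negative, at a median of 0.15, and with a filter at 1 FPKM there were 2, also at a median of 0.15. Of these loci LXLOC_053345 was called, named like LXLOC_053346 after its values were seen, with 1.03 ± 0.127 FPKM with JQ1 and 0.595 ± 0.00707 FPKM with vehicle in HepG2 (SD, n = 2 each) and a log2 fold change of 0.48 (limma, adjusted p = 0.0354). That call was lost with no filter and with any 1 library left out, while LXLOC_053346 was also called with centring and with quantile normalization. In LM3, 7 minus-strand loci were tested there, of which 3 were called lower (1 with quantile normalization) and 1 higher, with a median of -0.43, and only 1 plus-strand locus passed the filter. The higher one, LXLOC_054643, also named after its values were seen, had 0.860 ± 0.0707 FPKM with JQ1 and 0.450 ± 0.0283 FPKM with vehicle in LM3 (SD, n = 2 each, log2 fold change 0.52, limma, adjusted p = 0.0465). That locus passed the filter through its JQ1 libraries, and its call was lost with no filter on low values and with the replicate number as a block.

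**Figure D5:**
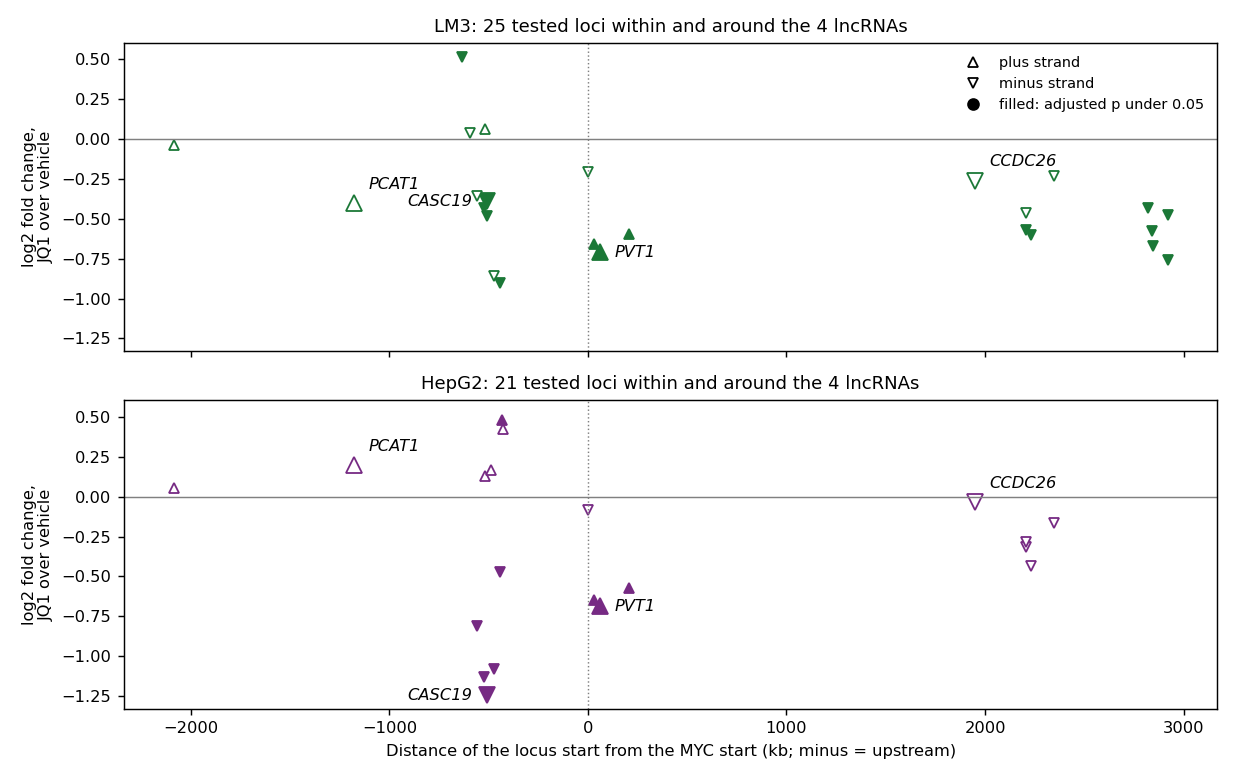
Log2 fold changes (JQ1 over vehicle) of all tested loci around MYC against distance from the MYC start in kb, LM3 above HepG2; upward and downward triangles are plus-strand and minus-strand loci, and filled ones passed an adjusted p of 0.05 in limma. In HepG2 the minus-strand loci between the CASC19 start and the PCAT1 end lie at -0.47 and below, and in LM3 filled minus-strand loci are also seen beyond CCDC26.

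Beyond CCDC26 the lines differed in which loci were expressed. In LM3, 9 loci were tested there. Several are adjacent on the minus strand and another lies within LXLOC_054673, so they are not independent of each other. All 9 had negative values under every scaling tried, with a median log2 fold change of -0.57. Of them 7 were called lower, where 15.4% of all tested LM3 loci were. The count was 4 with each library centred, 5 when rescaled, 2 with quantile normalization and 0 with any 1 library left out. In HepG2, 4 loci were tested there, all with negative values and none called, with a median of -0.30. Of these, 1 was called lower with quantile normalization, when rescaled, with a filter at 1 FPKM and with the replicate block. The LM3 locus with the smallest p, LXLOC_054673 at 130581852 to 130655712 on the minus strand, averaged 2.35 ± 0.226 FPKM with JQ1 and 4.32 ± 0.0778 FPKM with vehicle (SD, n = 2 each), a log2 fold change of -0.76 (SE 0.0991, limma, adjusted p = 0.0141). ASAP1-IT2, an intronic transcript of ASAP1, had a log2 fold change of -0.23 in LM3 (limma, adjusted p = 0.173) and -0.16 in HepG2 (limma, adjusted p = 0.465). LINC02964, at the other end of the interval, had -0.037 in LM3 (limma, adjusted p = 0.859), with a sign that turned under each other scaling, and 0.054 in HepG2 (limma, adjusted p = 0.780). Neither was called in either line.

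Few other named lncRNAs of 8q24 could be tested. Of 16 listed, 9 were matched to no value, 6 had values below the filter and MINCR alone passed it, in both lines. Among those without a value, PCAT2 and CCAT1 overlap the span of CASC19 and CASC21 that of PCAT1. LINC00976 and LINC00977 overlap that of CCDC26, and LINC02912 that of PVT1. A missing value therefore does not show that these were not expressed. MINCR, a lncRNA known to be induced by MYC, averaged 2.04 FPKM with JQ1 and 2.29 FPKM with vehicle in LM3, a log2 fold change of -0.14 (limma, adjusted p = 0.401). It averaged 2.43 FPKM with JQ1 and 3.42 FPKM with vehicle in HepG2, a log2 fold change of -0.42 (limma, adjusted p = 0.0424), a call lost with centring, with quantile normalization and with no filter on low values. CASC11, which overlaps the start of MYC on the opposite strand, averaged 0.15 FPKM with JQ1 and 0.485 FPKM with vehicle in LM3, and 0.09 FPKM with JQ1 and 0.125 FPKM with vehicle in HepG2, below the filter in both.

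lncRNAs known to respond to MYC were called in both directions. Of 16 listed, which include MINCR, 13 were tested in LM3 with 3 called lower, 2 higher and 8 not called (median log2 fold change -0.17), where 15.4% of all loci were called lower and 7.92% higher, so the LM3 counts lie near the share over all loci. In HepG2, 14 were tested, with 7 called lower, 1 higher and 6 not called (median -0.40), where 14.2% of all loci were called lower and 10.8% higher. The count of lower calls was 2 in LM3 under each other scaling and 6 or 7 in HepG2. With 1 library left out it was 0 in LM3, and in HepG2 it was 0 without either JQ1 library and 4 and 3 without vehicle libraries 1 and 2. MIR17HG, the host of the miR-17-92 cluster, had 4.15 and 4.35 FPKM in HepG2 with JQ1, against 8.55 and 8.37 FPKM with vehicle, a log2 fold change of -0.92 (limma, adjusted p = 0.00705). In LM3 it had 10.4 and 7.99 FPKM with JQ1, against 12.9 and 14.4 FPKM with vehicle, a log2 fold change of -0.55 that did not pass (limma, adjusted p = 0.0703). KTN1-AS1, antisense to KTN1, fell by 0.62 on the log2 scale in LM3 (limma, adjusted p = 0.0157) and by 0.46 in HepG2 (limma, adjusted p = 0.0227, lost with no filter on low values). Among snoRNA hosts, SNHG17 was called lower in both lines, with -0.38 in LM3 (limma, adjusted p = 0.0334) and -0.57 in HepG2 (limma, adjusted p = 0.0103). Its LM3 call was lost under each other scaling, with no filter, without trend and robust fitting and with the replicate block. SNHG12, another snoRNA host, was called higher in both lines, with 0.47 in LM3 (limma, adjusted p = 0.0230) and 0.40 in HepG2 (limma, adjusted p = 0.0216, lost with no filter). SNHG15 (-0.60), SNHG16 (-0.38, lost with the replicate block) and FIRRE (-0.51) were called lower in HepG2 and not in LM3. SNHG1 was called higher in LM3 (0.43, lost with quantile normalization and with no filter) and not in HepG2. H19, DANCR and GAS5 were called in neither line, though in HepG2 DANCR was called among Ensembl loci alone and GAS5 with quantile normalization. DDX11-AS1 was below the filter in LM3 and was not called in HepG2. LINC01123 was called lower in LM3 (-0.96, limma, adjusted p = 0.0368, lost with no filter) and not in HepG2 (-0.57, adjusted p = 0.0863, called there with the replicate block), and the difference between the lines passed for no member of the list.

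Loci whose level over the 8 libraries was most like that of each gene were read by Pearson r on log2(FPKM + 0.5), among 818 loci with a symbol. The libraries form 4 groups, so these values describe the pattern over groups. For PVT1 they were LINC00623 (r = 0.995), NTRAS (0.981) and TMEM147-AS1 (0.979). For CASC19, which follows the line difference, they were LINC00665 (r = 0.995), MIR222HG (0.992) and RAB4A-AS1 (0.989). CCDC26 was most like ZNF778-DT (r = 0.971), LINC02395 (0.956) and PRKG1-AS1 (0.938). PCAT1 reached lower values, with PCGF3-AS1 (r = 0.881), FTX (0.867) and IQCH-AS1 (0.856).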

How the data were processed

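The authors deposited FPKM per locus in 1 lncRNA table for each line, rounded to 2 decimals, per the file names and headers. The submitters' processing notes list hg19, mm8 and Bowtie 0.12.2, with no role for any. Coordinates in the tables match GRCh38, since GENCODE release 29 puts 100% of 14860 shared Ensembl IDs on the same chromosome and 85.7% at the same start. The sources used here do not give the counting tool, the lengths used, the strand setting or where the LXLOC loci come from. Each table lists 23161 loci, of which 7692 had a dash in place of values and were left out. Exons were read from GENCODE release 29 and neighbouring names from RefSeq on GRCh38.p14. Overlap of an LXLOC locus with annotated exons was taken over its whole span, not over exons of its own. No sequence is printed.

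JQ1 was compared with vehicle within a table by limma 3.58.1 (R 4.3.3, trend and robust, two-sided) on log2(FPKM + 0.5). Loci were tested where the line's 4 libraries averaged 0.5 FPKM or more. Benjamini-Hochberg adjustment covered all loci tested, with a threshold of 0.05, and errors of fold changes are those of limma. The difference between lines was fitted over all 8 libraries for loci past both filters. Simulated data with known changes were used to test these fits. Levels and ratios were computed in pandas 2.3.3 and NumPy 2.4.6 under Python 3.11.15, and plotted in matplotlib 3.10.9.

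The genes and lists were chosen with earlier results of these data known. The 4 genes are named in every comparison. Listed loci with a symbol could be named where they passed the filter, but HULC and LINC01485 enter only the marker sums. Also named are up to 4 called loci without a symbol per line by smallest p, and the 3 symbols most like each gene. LXLOC_054643, LXLOC_054645 and LXLOC_054646 are added as further loci within CASC19. LXLOC_054648 and LXLOC_054649 are given in both lines although each was named by 1, CASC11 is given below the filter for its position at MYC, and LXLOC_054647 and LXLOC_053352 in both lines likewise. Alternatives were 3 other scalings, 2 other pseudocounts, 2 other filters, limma without trend and robust fitting, Ensembl loci alone, a replicate block and leaving out each library.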

Additional observations from a re-analysis of the deposited data

How the results depend on the processing

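Loci called lower or higher numbered 1511 in LM3 and 1480 in HepG2. They numbered 857 in LM3 and 852 in HepG2 with no filter on low values, 378 in LM3 and 430 in HepG2 among Ensembl loci alone, and 975 in HepG2 with a filter at a mean of 1 FPKM. With 1 library left out the count was 0 in LM3 (1525 to 2365 loci at an unadjusted p under 0.05, limma) and 0 to 475 in HepG2 (1679 to 2028 unadjusted), 0 without either JQ1 library there. Loci whose response differed between lines numbered 11 (604 at an unadjusted p under 0.05), and 20 with centring, 5 with quantile normalization, 17 when rescaled, 7 with a pseudocount of 0.1, 19 with a pseudocount of 1, 94 with no filter, 7 with a filter at 1 FPKM, 5 among Ensembl loci, 0 with the replicate block and 0 to 3 with 1 library left out.

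PVT1 and CASC19 in HepG2 kept their calls under all 10 alternatives that left all libraries in, as did PVT1 in LM3. CASC19 in LM3 lost its call with centring (-0.30), with no filter and without trend and robust fitting (-0.39 in both), and with 1 library left out it was -0.43 to -0.34. In HepG2, CASC19 was -1.36 to -1.13 and PVT1 -0.72 to -0.65 with 1 library left out, and PVT1 was -0.73 to -0.69 in LM3. The CASC19 difference passed with centring (0.93), when rescaled (0.97) and among Ensembl loci (0.86), and was 0.74 to 0.97 with 1 library left out. The PVT1 difference changed sign with centring (0.047), quantile normalization (0.15) and rescaling (0.094), and was -0.060 to 0.013 with 1 library left out. CCDC26 in HepG2 changed sign with centring (0.0049) and without HepG2 vehicle replicate 1 (0.13), with a range of -0.19 to 0.13. The cause of these changes was not tested. PCAT1 had no value with a filter at 1 FPKM.

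Replicates of JQ1 and vehicle share a number in the labels, but the difference between replicates 1 and 2 correlated at 0.135 between JQ1 and vehicle in LM3 and -0.0345 in HepG2. The labels name no shared source and these values do not settle a pairing, so the numbers were not used as pairs. With the replicate block 1215 loci were called in LM3 and 1453 in HepG2, and no call of the 4 genes in either line changed. With 2 libraries a group and no read counts, levels near 0.5 FPKM are the least certain.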
